A study of Homo sapiens with 4 samples.

Results

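The genes described here encode proteins that give an epithelial cell its apical and basal sides and that carry cargo to them. They are the 10 genes CRB3, LLGL2, PARD6B, PATJ, PARD3, SCRIB, RAB25, MAL2, AP1M2 and MYO5B. They were chosen by name as members of the Crumbs, PAR and Scribble complexes and as sorting proteins of polarised epithelia. The choice was made with earlier results of these data known, so the number that fell is not an independent result. All 10 were found among the 58233 genes of the deposited count table. RNA-seq was done on MCF10AT, human breast epithelial cells derived from MCF10A and transformed by an activated HRAS. The genotype label Bromo+/- was given to 2 libraries and the label Non-target control to the other 2, and what the first name stands for is not said. The medium of every library held horse serum, insulin, hydrocortisone, cholera toxin, epidermal growth factor, penicillin and streptomycin. The labels' protocols, which are the same for both groups, also describe lentiviral shRNA transduction followed by puromycin selection, and the series title and design name EP300 as the shRNA target. No label says whether the libraries of a group came from separate cultures or from 1 clone, so p-values measure the spread between these libraries, which may be technical.

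In polarised epithelium the apical domain is set by the Crumbs complex and by the PAR complex with its atypical protein kinase C, and the basolateral domain by the Scribble module. Each side excludes the other. Newly made and recycled membrane proteins then reach the right side by way of clathrin adaptors, recycling endosomes with their RAB GTPases and myosin V motors, and raft-associated MAL proteins. Several of these genes are expressed mainly in epithelia and have a relative with wider expression, such as LLGL2 beside LLGL1, AP1M2 beside AP1M1 and MYO5B beside MYO5A. In other epithelial cells the repressors ZEB1 and SNAIL have been shown to bind E-boxes of CRB3, and ZEB1 those of PATJ and LLGL2.

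Libraries under the Bromo+/- label held 11975396 and 10953756 counts and the controls 10835237 and 11884715. The share of mitochondrially encoded genes was 5.05% and 5.18% under the Bromo+/- label and 4.32% and 4.21% in the controls. Markers of the labelled cell type were low under the Bromo+/- label: of 9 mammary epithelial markers 8 were tested and all 8 fell, the list summed to 1280 and 1210 CPM there and to 9560 and 9230 CPM in the controls, and KRT14 had no count in either Bromo+/- labelled library. Among markers of other cells, the summed level of 8 fibroblast genes was 106 and 103 CPM under the Bromo+/- label and 43.4 and 41.3 CPM in the controls, with COL3A1 and LUM at 0 in every library. DCN made up most of that sum under the Bromo+/- label (79.1 against 0.728 CPM in the controls) and FAP most of it in the controls (16.8 CPM under the Bromo+/- label against 38.3 CPM). The 8 leukocyte genes summed to 8.97 and 7.71 CPM under the Bromo+/- label and to 37.8 and 36.7 CPM in the controls, with CD3E and MS4A1 at 0 everywhere. The 6 endothelial genes summed to 18.1 and 15.1 against 12.3 and 11.7 CPM with VWF at 0, and the 5 smooth muscle genes to 78.7 and 71.4 against 115 and 112 CPM with CNN1 at 0 (ACTA2 rose and SMTN fell), in each case the Bromo+/- labelled libraries against the controls. EP300, the gene named in the series title as knocked down, stood at 124 ± 3.73 CPM under the Bromo+/- label and at 109 ± 3.16 CPM in the controls (SD, n = 2 each), so it was not lower there (log2 fold change 0.19, SE 0.06; adjusted p = 0.00701 in edgeR, 0.0639 with DESeq2 and 0.162 without control replicate 1). The part of any of these differences in the results below was not tested. In bulk RNA, fewer cells of a type and less RNA per cell cannot be told apart.

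All 10 polarity and trafficking genes were lower under the Bromo+/- label at an adjusted p under 0.05 (edgeR's quasi-likelihood test with Benjamini-Hochberg adjustment over 13179 tested genes), in a comparison where 27.1% of all tested genes were lower and 53.5% were called in either direction. In each of the 10, both Bromo+/- labelled libraries lay below both controls, as did 37.5% of all tested genes, and the groups were apart in either direction in 75.2%. The sizes differed widely. RAB25, CRB3, AP1M2, MAL2, MYO5B and LLGL2 fell by more than 3 on the log2 scale, which 2.33% of all tested genes did (3.77% fell by 2 or more). Of the others, PATJ and PARD6B fell by between 1 and 2 and PARD3 and SCRIB fell by less than 1. The median log2 fold change was -4.02, beside 0.01 for all tested genes. All 10 passed the filter on low counts, but CRB3, RAB25 and AP1M2 passed it only through the controls. Levels below are scaled CPM, each count relative to the TMM-scaled size of its library. Log2 fold changes are the Bromo+/- label over control with the standard error (SE) of the fitted model.

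**Figure D1:**
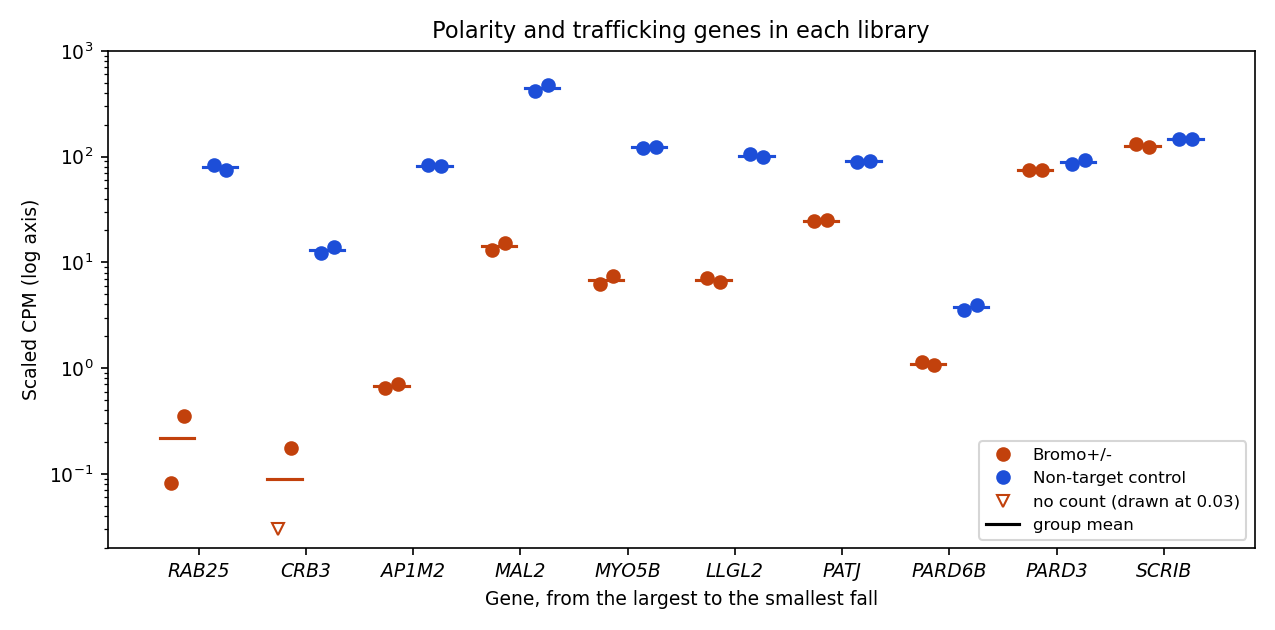
Scaled CPM (log axis) of the 10 polarity and trafficking genes in each library, with the Bromo+/- labelled libraries (orange) left of the non-target controls (blue), a bar for each group mean and an open triangle for the library without a count. In every gene both orange points lie below both blue points, from a wide gap for RAB25 (0.218 against 79.6 CPM) to a narrow one for SCRIB (126 against 146 CPM).

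Of the Crumbs complex, transcripts of the transmembrane protein itself were almost absent under the Bromo+/- label. CRB3 (ENSG00000130545, GRCh38 chr19:6463777-6467221, plus strand), the Crumbs protein of epithelial cells, had 0 and 2 counts under the Bromo+/- label and 129 and 162 counts in the controls. The ratio of control to Bromo+/- was 156, with a 95% exact binomial interval of 42.7 to 1290 that covers counting error only (adjusted p = 3.74e-48, edgeR). The fitted log2 fold change of CRB3 was -7.11 (SE 1.05), -10.24 without Bromo+/- replicate 2 and -6.13 without Bromo+/- replicate 1. Without Bromo+/- replicate 2 no count remains there, so that value depends on the prior count of the fit. CRB3 shares 15 exonic bases with DENND1C on the other strand, which had 0 and 2 counts under the Bromo+/- label and 106 and 83 in the controls, and with the strand setting of the counting not given, reads in that overlap cannot be assigned to either gene. PATJ (ENSG00000132849, chr1:61742477-62178675, plus strand), the multi-PDZ scaffold of the complex, stood at 24.5 and 25.0 CPM under the Bromo+/- label and at 89.7 and 91.1 CPM in the controls. It fell by 1.87 on the log2 scale (SE 0.08, adjusted p = 1.13e-62, edgeR), and replicates within a group differed by less than 2 CPM.

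Other genes of the complex differed by less. PALS1, the adaptor that ties Crumbs to PATJ, fell to 59.3 ± 4.75 CPM under the Bromo+/- label, against 78.0 ± 0.23 CPM in the controls (log2 fold change -0.40, SE 0.07). LIN7C and LIN7B, small PDZ partners of PALS1, had log2 fold changes of -0.04 (SE 0.10) and 0.17 (SE 0.41) and did not pass. MPDZ, the paralogue of PATJ with a similar row of PDZ domains, rose to 57.3 ± 0.59 CPM, against 34.9 ± 1.66 CPM in the controls (log2 fold change 0.71, SE 0.08). CRB1, the Crumbs gene of retina, had 1 count over all 4 libraries and CRB2 had none. Of 4 tested genes of the complex besides the members, 1 rose, 1 fell and 2 did not pass.

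In the PAR complex the PAR6 and PAR3 members both fell, by very different amounts. PARD6B (ENSG00000124171, chr20:50731544-50756795, plus strand), the PAR6 that links atypical protein kinase C to CDC42, was at a low level throughout, with 14 and 12 counts under the Bromo+/- label and 37 and 46 in the controls, or 1.14 and 1.06 against 3.53 and 3.98 CPM. Both Bromo+/- labelled libraries were below both controls, and PARD6B fell by 1.76 on the log2 scale (SE 0.33, adjusted p = 1.47e-07, edgeR). PARD3 (ENSG00000148498, chr10:34109560-34815325, minus strand), the PAR3 scaffold of tight junctions, stood at 75.1 and 73.9 CPM under the Bromo+/- label and at 85.6 and 91.9 CPM in the controls. Its fall of 0.25 on the log2 scale (SE 0.07, adjusted p = 0.00076, edgeR) was the second smallest of the 10 and no longer passed without control replicate 2 (-0.21, adjusted p = 0.0804).

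The kinases and the GTPase of the PAR complex were also somewhat lower, and the other PAR6 and PAR3 genes were not. PRKCI and PRKCZ, the atypical protein kinases C, fell by 0.40 (SE 0.07) and 0.82 (SE 0.16) on the log2 scale. PRKCZ shares exonic bases with FAAP20 on the other strand. CDC42 was at 139 ± 1.18 CPM under the Bromo+/- label and at 168 ± 7.15 CPM in the controls. PARD6A rose to 2.61 and 1.51 CPM, against 0.86 and 0.605 CPM in the controls (log2 fold change 1.503, SE 0.43), no longer called by the DESeq2 Wald test (adjusted p = 0.0648) or in edgeR without Bromo+/- replicate 1 (adjusted p = 0.117). PARD6G did not pass (0.45, SE 0.26, adjusted p = 0.125, edgeR). PARD3B, at 28 counts against 11 over the groups, had a log2 fold change of 1.23 (SE 0.52) and passed in edgeR (adjusted p = 0.0242) but not under 5 of 13 alternatives, among them each library left out except Bromo+/- replicate 2. The PAR1 kinases split, with MARK2 lower (-0.40) and MARK4 higher (0.73; its exons overlap those of GEMIN7). Over the list, 3 of 10 tested genes besides the members rose, 4 fell and 3 did not pass, and 1 rose without Bromo+/- replicate 1.

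In the Scribble module LLGL2 fell steeply and SCRIB slightly. LLGL2 (ENSG00000073350, chr17:75525080-75575208, plus strand), a Lethal giant larvae protein that opposes the PAR complex at the lateral membrane, was at 7.09 and 6.55 CPM under the Bromo+/- label and at 105 and 99.1 CPM in the controls. It fell by 3.90 on the log2 scale (SE 0.13, adjusted p = 1.1e-105, edgeR), and the groups were far apart. SCRIB (ENSG00000180900, chr8:143790920-143815379, minus strand), the scaffold of the module, was at 131 and 122 CPM under the Bromo+/- label and at 145 and 148 CPM in the controls, the smallest difference of the 10. Its fall of 0.21 on the log2 scale (SE 0.06, adjusted p = 0.00151, edgeR) did not pass with scaling by library size alone (-0.13, adjusted p = 0.0677) or without control replicate 2 (-0.20, adjusted p = 0.0558).

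Of the other genes of this module, each of the 7 tested moved, 3 up and 4 down. LLGL1, the relative of LLGL2, rose to 103 and 90.4 CPM under the Bromo+/- label, against 76.9 and 75.6 CPM in the controls (log2 fold change 0.35, SE 0.07). It shares 40 exonic bases with FLII on the other strand. The membrane-associated scaffolds DLG1 and DLG3 fell by 0.47 (SE 0.07) and 0.83 (SE 0.09), and DLG4 rose by 1.46 (SE 0.16) on the log2 scale. DLG4 overlaps exons of ACADVL, an abundant gene on the other strand. LRRC1, the LAP protein closest to SCRIB, fell by 1.34 (SE 0.12), while ERBIN, a LAP protein of the basolateral membrane, was 0.21 lower (SE 0.06), a call that ended with scaling by library size alone (adjusted p = 0.0745, edgeR) and without control replicate 2 (adjusted p = 0.104).

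**Figure D2:**
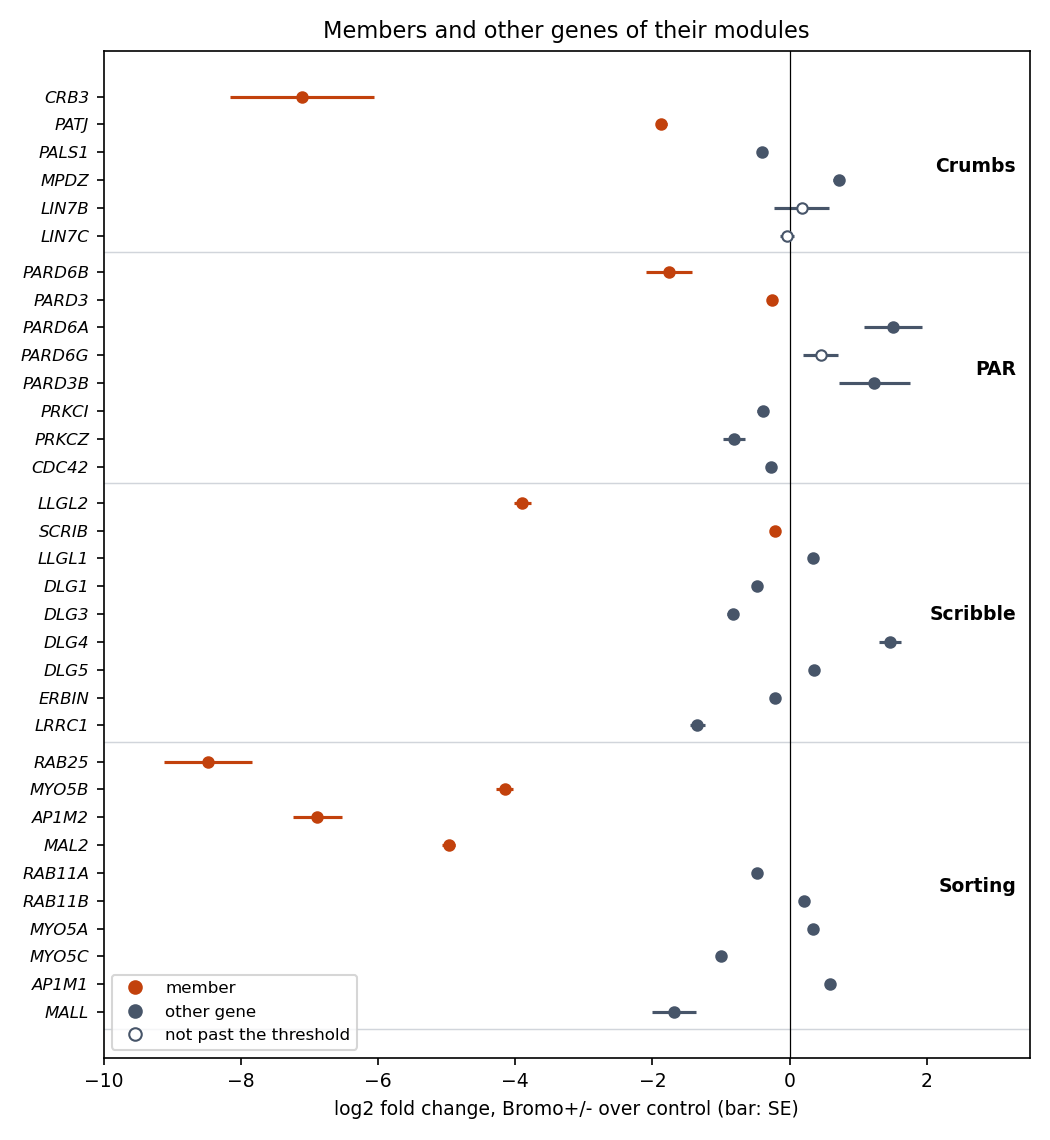
Log2 fold changes, Bromo+/- label over control, with the SE as a bar, for the 10 members (orange) and 23 other genes of the same complexes and families (grey, a selection of the lists), open where the adjusted p missed the threshold. Members reach from -8.48 for RAB25 to -0.21 for SCRIB, and the grey points drawn lie between -1.69 for MALL and 1.503 for PARD6A.

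The sorting genes held the largest fall of the 10. RAB25 (ENSG00000132698, chr1:156061160-156070514, plus strand), an epithelial GTPase of the RAB11 family that works in apical recycling, had 1 and 4 counts under the Bromo+/- label and 877 and 872 in the controls, or 0.0815 and 0.354 against 83.8 and 75.4 CPM. It fell by 8.48 on the log2 scale (SE 0.65, adjusted p = 3.83e-114, edgeR), which ranked 24 from the lowest among 13179 genes, and the groups were far apart. The fitted log2 fold change was -7.77 without Bromo+/- replicate 1 and -9.75 without Bromo+/- replicate 2, so its size, though not its call, rests on very few counts. AP1M2 (ENSG00000129354, chr19:10572671-10587315, minus strand), the mu subunit of the epithelial form of the AP-1 clathrin adaptor that sorts basolateral cargo, had 8 and 8 counts under the Bromo+/- label and 864 and 932 in the controls. These are 0.652 and 0.709 CPM against 82.5 and 80.6 CPM, with little spread in either group, and a fall of 6.88 on the log2 scale (SE 0.36, adjusted p = 1.89e-115, edgeR).

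MAL2 and MYO5B stayed clearly detectable at lower levels. MAL2 (ENSG00000147676, chr8:119165034-119245673, plus strand), a raft protein needed for transcytosis to the apical side, was at 13.2 and 15.2 CPM under the Bromo+/- label and at 418 and 472 CPM in the controls. Both Bromo+/- labelled libraries lay far below the controls, and MAL2 fell by 4.97 on the log2 scale (SE 0.09, adjusted p = 1.39e-141, edgeR). Its antisense transcript MAL2-AS1, which shares 202 exonic bases with it, had 1 count under the Bromo+/- label and 19 in the controls. MYO5B (ENSG00000167306, chr18:49822813-50195093, minus strand), the myosin V motor that moves RAB11 and RAB25 carriers, was at 6.28 and 7.44 CPM under the Bromo+/- label and at 120 and 123 CPM in the controls. Its fall was 4.15 on the log2 scale (SE 0.13, adjusted p = 1.2e-113, edgeR), close in size to that of LLGL2.

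**Figure D3:**
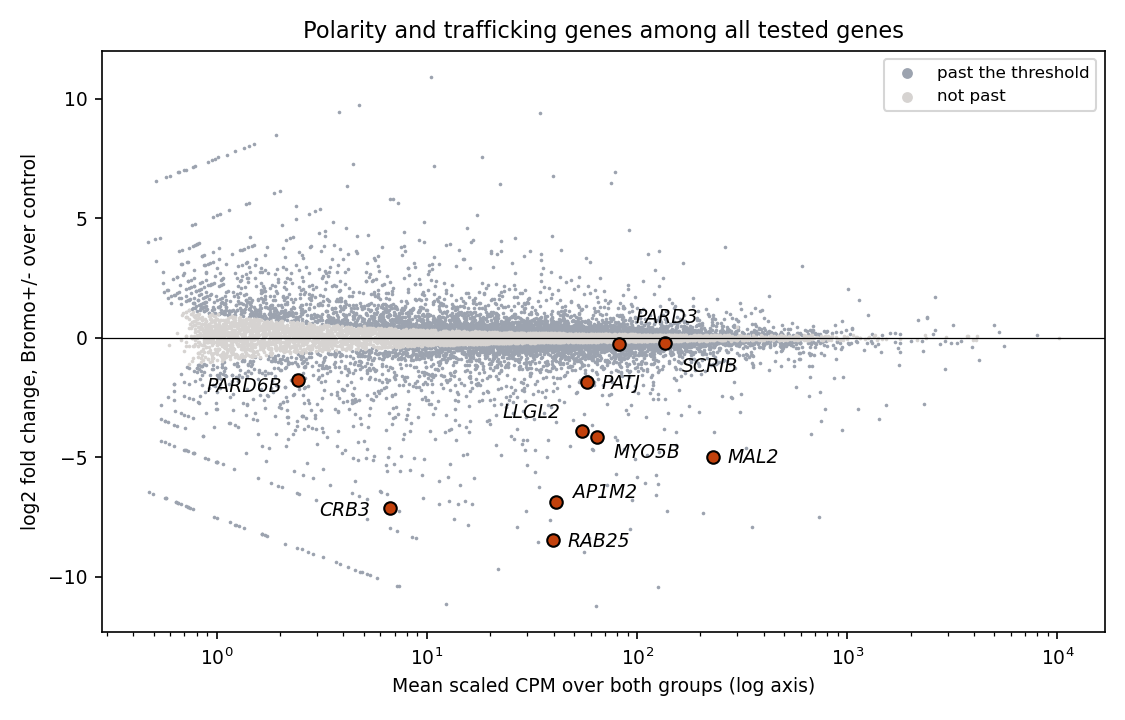
Log2 fold change, Bromo+/- label over control, against the mean scaled CPM over both groups (log axis) for 13179 tested genes (grey, darker where past the threshold), with the 10 members in orange. RAB25, AP1M2, CRB3, MAL2, MYO5B and LLGL2 lie below -3, and PARD3 and SCRIB lie near 0.

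Genes that work with these sorting proteins were lower in part. Of 22 tested genes of the recycling endosome and of apical carriers, 13 fell, 4 rose and 5 did not pass, with a median log2 fold change of -0.42. RAB11FIP4, a RAB11 effector, had the largest fall of the tested genes (-2.92, SE 0.26). SYTL5, a synaptotagmin-like protein, did not pass the filter on low counts and had 0 counts under the Bromo+/- label and 24 in the controls. With 3 counts set over the group it was 8.55-fold lower, and the 95% exact lower limit of the ratio was 6.43. STX3, the syntaxin of the apical membrane, fell to 12.1 ± 0.59 CPM under the Bromo+/- label, against 47.4 ± 1.79 CPM in the controls (-1.97, SE 0.11), and RAB17, an epithelial RAB, fell by 1.61 (SE 0.13). RAB11A, the widely expressed relative of RAB25, was at 131 and 132 CPM under the Bromo+/- label and at 182 and 184 CPM in the controls (-0.48, SE 0.06). RAB11B was 0.21 higher on the log2 scale (SE 0.08, adjusted p = 0.0156, edgeR), no longer called by the DESeq2 Wald test (adjusted p = 0.137) or in edgeR without 1 of 3 libraries (0.0768 without Bromo+/- replicate 1, 0.206 and 0.0577 without control replicates 1 and 2). Of the 9 exocyst subunits, which tether carriers to the membrane, 7 did not pass, EXOC7 rose (0.42, SE 0.08) and EXOC6B fell (-0.30, SE 0.08), while 2 rose without Bromo+/- replicate 1 and 2 fell without Bromo+/- replicate 2.

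No other AP-1 subunit fell as far as AP1M2. AP1G1 and AP1B1, the large subunits, had log2 fold changes of -0.02 (SE 0.06) and -0.12 (SE 0.06). Small subunits moved in both directions, AP1S3 falling by 1.29 (SE 0.09), AP1S1 falling by 0.25 (SE 0.06) and AP1S2 rising by 0.93 (SE 0.11). In all, 2 of 7 tested subunits rose, 4 fell and 1 did not pass, and without control replicate 2 the falls were 2. In the list of MAL relatives and raft sorting, MALL fell to 1.30 and 1.15 CPM under the Bromo+/- label, against 4.01 and 3.98 CPM in the controls (-1.69, SE 0.32), MAL had no count, and LGALS3, a galectin of apical carriers, fell by 0.88 (SE 0.06). CAV1, which encodes caveolin, had a log2 fold change of -0.21 (SE 0.05) and FLOT2, a flotillin, of 0.35 (SE 0.06), both past the threshold. Of 8 tested there, 4 rose, 3 fell and 1 did not pass, with 1 rise left without control replicate 2. Among apical scaffolds EZR, the ezrin of microvilli, fell by 0.87 (SE 0.05) while PODXL and NHERF2 rose by 2.10 (SE 0.14) and 0.92 (SE 0.12). The other 3 of 6 tested did not pass, and without Bromo+/- replicate 1 the falls there were 2.

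Of 38 tested genes of coat proteins, endosomes, retromer, ARF GTPases and clathrin with its other adaptors, 14 fell, 7 rose and 17 missed the threshold; their median was -0.07. The falls were 9 without either control replicate in turn, and with scaling by library size alone 8 fell and 11 rose. CLTB, a clathrin light chain, had the largest fall of that list (-1.18, SE 0.06), SEC23B and ARF5 fell by 0.45 and 0.57, and AP2A1 rose by 0.42. Of the 85 tested genes of the polarity, sorting, scaffold and planar polarity lists besides the members, 37 fell, 24 rose and 24 did not pass, with a median log2 fold change of -0.09 and values between -2.94 and 2.10 among those that passed the filter on low counts.

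Within most gene families the member made up a smaller share beside its paralogue. Of 16 paralogues listed for the 10 members, 13 were tested, and 7 rose, 5 fell and 1 did not pass, beside 26.4% and 27.1% of all tested genes that rose and fell. RPKM (CPM per kilobase of exon) puts genes of different length on a common scale, although it divides by all exons of the gene in the annotation, used or not, so that levels of genes with many unused exons come out low. The change of a ratio between groups does not depend on length, but the shares, the sums and which gene is in the majority do. LLGL2 made up 5.46% and 5.73% of the summed RPKM of LLGL2 and LLGL1 under the Bromo+/- label and 53.4% and 52.4% in the controls. PATJ made up 28.8% and 29.4% of its sum with MPDZ under the Bromo+/- label and 71.6% and 70.6% in the controls. In both families the majority gene differed between the groups in every library.

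The order was also reversed for AP1M2, MYO5B and PARD6B. AP1M2 was 3.99% and 4.55% of the summed RPKM of AP1M2 and AP1M1 under the Bromo+/- label and 89.6% and 88.3% in the controls. AP1M1, the subunit of the ubiquitous adaptor, rose to 102 and 96.6 CPM, against 62.1 and 69.6 CPM in the controls (log2 fold change 0.59, SE 0.07). MYO5B was 7.96% and 9.02% of its sum with MYO5A under the Bromo+/- label and 68.4% and 67.0% in the controls. MYO5A rose to 89.8 and 92.9 CPM, against 68.9 and 75.3 CPM in the controls (0.34, SE 0.07), while MYO5C, the other epithelial myosin V, fell by 1.00 (SE 0.07). PARD6B was 12.1% and 18.2% of its sum with PARD6A under the Bromo+/- label and 56.4% and 67.4% in the controls, at levels of only 1 to 2 RPKM together.

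Summed levels of member and paralogue were also compared. The sum of RPKM under the Bromo+/- label was 0.633 of the control sum for LLGL2 with LLGL1, 0.669 for PATJ with MPDZ, 0.448 for MYO5B with MYO5A and 0.174 for AP1M2 with AP1M1. The value for AP1M2 with AP1M1 rests on their annotated lengths, 2214 and 14371 bases. In CPM, AP1M2 was at 0.68 under the Bromo+/- label and 81.6 in the controls, and AP1M1 at 99.2 and 65.8. For RAB25 with RAB11A the ratio of sums was 0.294, with RAB25 at 0.207% and 0.891% of the sum under the Bromo+/- label and at 60.6% and 57.8% in the controls. RAB11A has the longer annotation (5682 against 1699 bases). In CPM, RAB25 was below RAB11A in the controls as well (79.6 against 183). PARD6B with PARD6A had no clear direction, with sums of 1.99 and 1.24 RPKM under the Bromo+/- label and 1.33 and 1.25 RPKM in the controls, which overlap. With PARD6G the sums were 1.13 and 1.04 RPKM under the Bromo+/- label and 1.36 and 1.48 RPKM in the controls. Their ratio of means was 0.766. PARD3 remained over 98% of its sum with PARD3B in every library, and the share of SCRIB beside ERBIN was 67.1% and 64.5% under the Bromo+/- label and 66.2% and 65.5% in the controls, so that these groups overlap. Beside LRRC1 the share of SCRIB was higher, at 87.9% and 89.8% under the Bromo+/- label and 77.0% and 79.4% in the controls. These sums and shares were not tested.

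**Figure D4:**
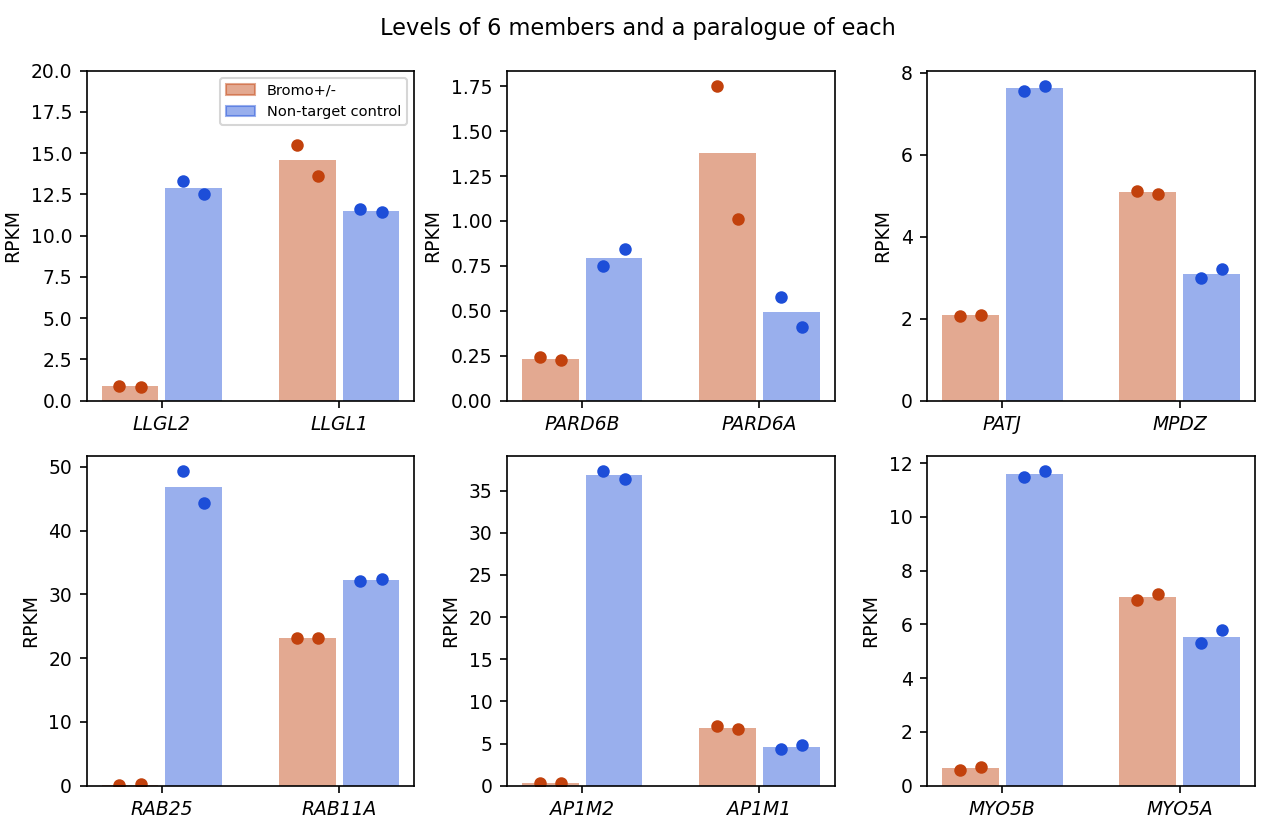
RPKM of 6 members and a paralogue of each, with bars for group means and points for libraries, the Bromo+/- labelled libraries (orange) left of the controls (blue). LLGL1, PARD6A, MPDZ, AP1M1 and MYO5A are higher and RAB11A is lower under the Bromo+/- label, while each member is lower there.

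The order of the 10 by level per length changed between the groups. In the Bromo+/- labelled libraries SCRIB stood first at 20.4 RPKM and PARD3 next at 11.4, then MAL2 (4.15), PATJ (2.09), LLGL2 (0.863), MYO5B (0.654), AP1M2 (0.307), PARD6B (0.233), RAB25 (0.128) and CRB3 (0.0556). RAB25 and CRB3 overlapped there. PARD6B, at 0.241 and 0.225 RPKM, lay just above RAB25, at 0.048 and 0.209 RPKM, by less than the RAB25 libraries differed from each other. In the controls MAL2 stood first at 130 RPKM, followed by RAB25 (46.8), AP1M2 (36.8), SCRIB (23.6), PARD3 (13.6), LLGL2 (12.9), MYO5B (11.6), CRB3 (8.27), PATJ (7.62) and PARD6B (0.795). The libraries of PARD3 and LLGL2 overlapped there. CRB3, at 7.74 and 8.80 RPKM, lay above PATJ, at 7.56 and 7.67 RPKM, by less than the CRB3 libraries differed from each other. RAB25 thus held place 9 of 10 under the Bromo+/- label and place 2 in the controls.

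Transcription factors tied to this gene group were read beside it. ZEB1 was at 26.2 and 28.2 CPM under the Bromo+/- label and at 3.06 and 2.42 CPM in the controls (log2 fold change 3.31, SE 0.20), and ZEB2 at 29.3 and 31.6 against 1.91 and 1.90 CPM (3.99, SE 0.24). SNAI1 (-0.44, SE 0.23), SNAI2 (-0.12, SE 0.09) and TWIST1 (0.12, SE 0.13) did not pass. The Grainyhead-like activator GRHL2 fell to 1.32 ± 0.26 CPM, against 64.2 ± 4.64 CPM in the controls, ELF3 fell by 7.90 (SE 0.64), OVOL2, which shares 59 exonic bases with SNX5, by 5.33 (SE 0.56) and GRHL1 by 3.94 (SE 0.26) on the log2 scale. OVOL1 was without a count under the Bromo+/- label and had 140 over the controls. With 3 counts set over the group it was 49.9-fold lower, and the 95% exact lower limit of the ratio was 40. GRHL3 was 0.44 lower (SE 0.14), no longer called by the DESeq2 Wald test (adjusted p = 0.099) or in edgeR without control replicate 2 (adjusted p = 0.0593), and ELF5 had no count. Whether these factors act on the 10 genes was not tested.

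The promoter windows are shown with the E-box CAGGTG, which ZEB and SNAIL proteins bind, a motif chosen with earlier results of these data known. Whether it has a part in the falls was not tested. Of the 10 genes, 5 had a window in the RefSeq table used (GRCh38.p14, 250 bases before to 50 after the transcription start). LLGL2, PARD6B, PARD3, SCRIB and MAL2 had no window. The least changed members, PARD3 and SCRIB, can therefore not be set beside the members with larger falls. Capitals mark each CAGGTG, which reads CACCTG where it lies on the other strand, and each sequence runs 5′ to 3′ on the strand of the gene.
CRB3 (chr19:6464021-6464320, plus strand): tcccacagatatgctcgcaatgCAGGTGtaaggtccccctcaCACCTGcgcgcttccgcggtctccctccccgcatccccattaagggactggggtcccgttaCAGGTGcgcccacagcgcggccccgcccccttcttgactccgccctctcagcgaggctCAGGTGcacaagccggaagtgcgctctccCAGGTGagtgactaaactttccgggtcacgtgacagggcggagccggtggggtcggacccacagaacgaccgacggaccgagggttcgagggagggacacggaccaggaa
PATJ (chr1:61742230-61742529, plus strand): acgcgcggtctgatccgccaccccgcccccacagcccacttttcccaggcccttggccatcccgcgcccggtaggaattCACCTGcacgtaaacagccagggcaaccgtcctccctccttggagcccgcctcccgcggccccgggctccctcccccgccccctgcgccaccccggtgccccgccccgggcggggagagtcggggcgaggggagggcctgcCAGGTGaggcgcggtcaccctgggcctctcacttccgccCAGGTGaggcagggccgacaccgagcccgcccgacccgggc
RAB25 (chr1:156060910-156061209, plus strand): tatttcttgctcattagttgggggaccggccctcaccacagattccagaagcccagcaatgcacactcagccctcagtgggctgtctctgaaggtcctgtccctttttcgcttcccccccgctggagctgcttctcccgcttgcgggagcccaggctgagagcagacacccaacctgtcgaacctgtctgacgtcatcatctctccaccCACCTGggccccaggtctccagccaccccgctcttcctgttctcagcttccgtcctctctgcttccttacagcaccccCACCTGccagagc
AP1M2 (chr19:10587263-10587562, minus strand): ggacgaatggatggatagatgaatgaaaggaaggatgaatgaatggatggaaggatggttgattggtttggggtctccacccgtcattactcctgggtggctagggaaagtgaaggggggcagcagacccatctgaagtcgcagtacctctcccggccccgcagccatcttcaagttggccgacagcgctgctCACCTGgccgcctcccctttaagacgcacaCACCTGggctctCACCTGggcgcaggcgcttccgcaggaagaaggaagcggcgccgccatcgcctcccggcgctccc
MYO5B (chr18:50195098-50195397, minus strand): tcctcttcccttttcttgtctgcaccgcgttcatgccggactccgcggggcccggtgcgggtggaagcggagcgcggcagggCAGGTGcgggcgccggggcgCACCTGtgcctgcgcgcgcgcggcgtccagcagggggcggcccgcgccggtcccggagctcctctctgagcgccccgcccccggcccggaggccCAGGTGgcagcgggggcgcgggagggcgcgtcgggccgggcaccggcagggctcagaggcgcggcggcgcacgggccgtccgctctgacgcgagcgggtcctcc

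CRB3 held 5 such hexamers, PATJ, AP1M2 and MYO5B held 3 each and RAB25 held 2. Of 14809 windows of tested genes, 18.7% held at least 1, 2.77% at least 2, 0.398% at least 3 and 0.0203% at least 5. Of 35116 windows in all, 20.6% held at least 1. Counted from the start as 0, the first bases of the matches in CRB3 lay at -228, -208, -147, -89 and -60 and those in AP1M2 at -57, -27 and -15. In PATJ they lay at -171, -30 and 9, in MYO5B at -168, -148 and -54 and in RAB25 at -41 and 37. Counted in the 250 bases before the start alone, the 5 windows held 14 of their 16 matches and none lost all of them.

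The windows of the paralogues held fewer of these hexamers. Of 12 paralogues with a single window, 8 held none and 4 (PARD6A, PARD3B, MYO5A and MYO5C) held 1. LLGL1, MPDZ and RAB11A were among those with none. Other motifs gave no common feature of the members: the wider E-box CANNTG, which includes CAGGTG, added 1 match each in CRB3 and AP1M2 and was in 61.4% of windows of tested genes. The GC box GGGCGG was found 3 times in CRB3, 6 times in PATJ and 2 times in MYO5B and is in 65.8% of windows. The TATA box TATAAA (6.25% of windows) and the Grainyhead-like motif AACCNGTT (1.45%) were in none of the 5 windows, which says only that these letters are not there. Both strands were searched in every case.

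Across all tested genes the hexamer was more frequent in windows of genes with large falls, given here as a description. At least 1 was found in 37.0% of 284 windows of genes lower by 3 or more on the log2 scale. The share was 21.4% for windows of all genes that fell, 17.5% for genes that rose and 17.7% for genes that did not pass. At least 3 were found in 13 of the 284 windows (4.58%). For the other groups, in the same order, the shares with at least 3 were 0.831%, 0.241% and 0.217%. CRB3, AP1M2 and MYO5B are among the 13. A match in a window is a description of sequence, and binding was not measured.

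**Figure D5:**
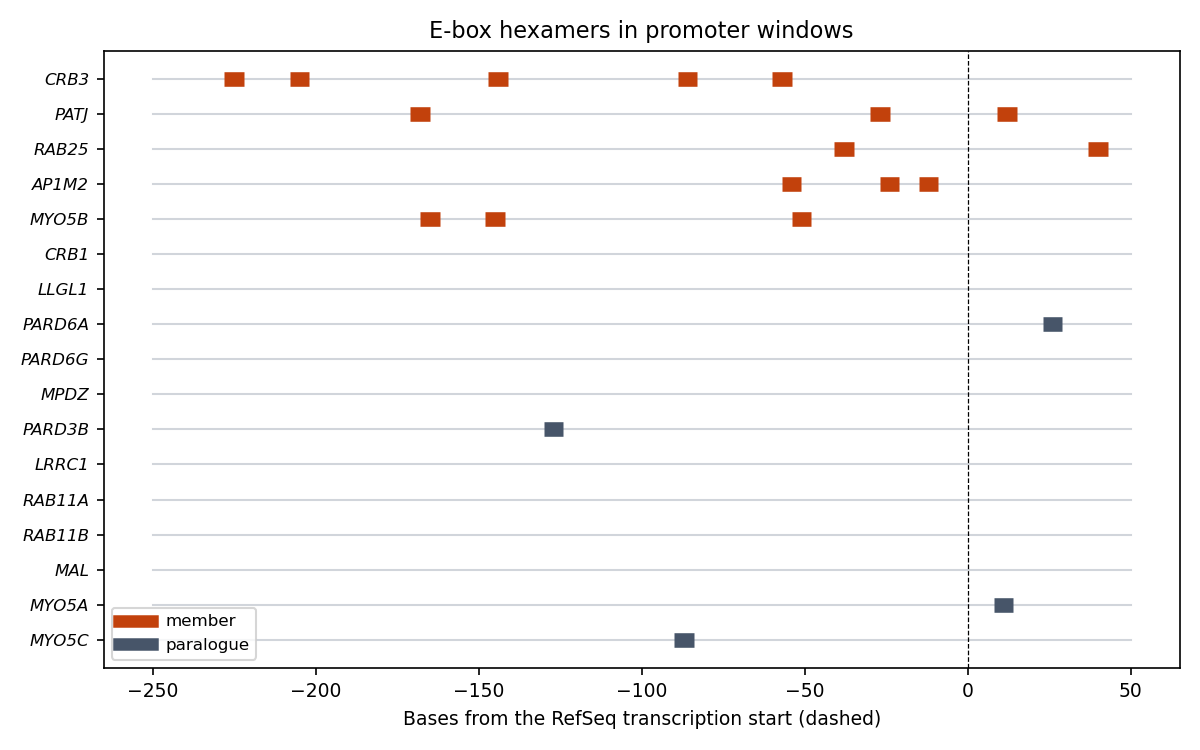
Positions of the E-box hexamer (bars) in promoter windows of 5 members (orange) and of 12 paralogues with a single window (grey), in bases from the RefSeq transcription start (dashed line). CRB3 has 5 and the other members 2 or 3, and each paralogue has 1 or none.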

How the data were processed

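Per the labels' protocols, Trizol RNA of MCF10AT cells was made into sequencing libraries with a TruSeq Stranded mRNA kit. The values are read counts per Ensembl gene as the authors deposited them. STAR (no version named) on GRCh38 and featureCounts 1.5.2 made them, per the submitters' processing notes. Annotation release, strand setting and treatment of multi-mapping reads were not given in the sources used here. Sample columns were assigned through their names, and the names with WT were taken as the Non-target control because the others abbreviate Bromo. Column names of a group also share a number that nothing explains. Of 58233 identifiers, 57392 took current symbols, 503 took GENCODE 29 symbols and 338 stayed unnamed. Coordinates and gene lengths (all exon bases) are those in the deposited table. Promoter windows are from RefSeq.

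Counts were analysed with edgeR 4.0.16 in R 4.3.3: filterByExpr (13179 genes; 10 counts, or 0.876 CPM, in a median library), TMM scaling (factors 1.03 and 1.03 under the Bromo+/- label, 0.968 and 0.975 in controls) and glmQLFit with glmQLFTest, robust and with 2 residual degrees of freedom, at a Benjamini-Hochberg adjusted p of 0.05. In 1 library 3 counts are 0.245 to 0.287 CPM. Fold values of genes with no count in a group set 3 counts over the group. Both cover counting error only. Replicates had r of at least 0.995 across genes within groups, and 0.912 at most between them. A chi-square per degree of freedom of 2.44 and 1.56 within groups exceeded sampling noise. The common coefficient of variation between replicates fitted by edgeR was small, at 3.52%. Each library counted as its own, although whether replicates were separate cultures is not known. Alternatives used DESeq2 1.42.0 and limma 3.58.1, other scalings and filters, a replicate block and each library left out. The procedure was tested on simulated data. The members, lists, paralogues and motifs were chosen with earlier results of these data known. Named genes are the members, their paralogues, EP300, the transcription factors and up to 4 genes per list with the smallest p. AP1G1, AP1B1, CDC42, SYTL5, VANGL1, VANGL2 and genes next to or overlapping a member were named after their values were seen.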

Additional observations from a re-analysis of the deposited data

How the results depend on the processing

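The fall of the 10 polarity and trafficking genes kept its direction under all 13 alternatives, and 127 of 130 values stayed on the same side of the threshold. The exceptions were PARD3 without control replicate 2 and SCRIB with library size alone and without control replicate 2, so that 9 and 8 of the 10 passed under those settings. Adding the replicate block left all 10 called and gave 7271 calls over all genes, beside 7055 without it; the correlation of deviations between libraries with the same number was 0.0484 and no label says that the number marks anything shared. The DESeq2 Wald test called 2292 genes higher, against 3485 in edgeR, and 2592 lower, against 3570. Library size alone gave 4433 higher and 2794 lower, shifting the median by 0.08. LIN7C, not called, had 0.0177 with upper quartile scaling, 0.042 with library size alone and -0.17 to 0.0778 with 1 library left out, and LIN7B, not called, -0.16 to 0.50 with 1 library left out; the cause was not tested. Of 832 values of the other 64 named genes, 805 kept direction and side, 17 lost the threshold, 5 passed it and 5 turned. By list, counts that moved by over 1.5 times with DESeq2 were the PAR module (1 higher), AP-1 subunits (2 lower) and MAL relatives (1 higher). Planar polarity (2 higher) and general trafficking (9 lower) moved as much there. The exocyst did so with upper quartile scaling or library size alone (2 higher). With library size alone, apical scaffolds (4 higher) and general trafficking (11 higher and 8 lower) also moved as much. Depth limits CRB3 and RAB25, whose levels under the Bromo+/- label rest on 2 and 5 counts.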

Other observations

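Planar cell polarity, which orients cells within the plane of an epithelium, had members on both sides. Of 12 tested genes 6 fell, 4 rose and 2 did not pass, with a median log2 fold change of -0.06, and the rises were 2 with the DESeq2 Wald test and without either control replicate in turn. The cadherins of the core pathway split, with CELSR2 at 27.9 ± 0.62 CPM under the Bromo+/- label and 65.9 ± 5.77 CPM in the controls (log2 fold change -1.24, SE 0.08) and CELSR3 at 60.3 ± 2.22 against 37.2 ± 0.98 CPM (0.69, SE 0.08). The cytoplasmic PRICKLE proteins went opposite ways, PRICKLE1 falling to 1.23 ± 0.11 CPM, against 9.51 ± 0.73 CPM in the controls (-2.94, SE 0.30; its exons overlap PPHLN1), and PRICKLE2 rising to 10.9 ± 0.16 CPM, against 2.78 ± 0.26 CPM in the controls (1.97, SE 0.22). VANGL1, a membrane protein of the pathway, did not pass (0.07, SE 0.06). Its relative VANGL2 fell by 2.27 on the log2 scale (SE 0.57), at 8 counts over the Bromo+/- labelled libraries and 37 over the controls.

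Genes beside the members on the chromosome, chosen by position, were read for the extent of each fall. Of the 20 nearest tested neighbours, 1 on either side of each member, 8 fell, 5 rose and 7 did not pass. Of all tested genes, 27.1% fell and 26.4% rose. RAB25 lies 2649 bases from LAMTOR2 (0.15, SE 0.09, not past) and 1498 bases from MEX3A (0.99, SE 0.27, higher). MYO5B lies 8852 bases from ACAA2 (0.00, SE 0.06, not past) and 32099 bases from CFAP53 (-0.96, SE 0.38, lower). LLGL2 lies 340 bases from TSEN54 (-0.63, SE 0.09, lower) and 51636 bases from RECQL5 (0.04, SE 0.10, not past). CRB3 overlaps DENND1C, which fell by 6.49 (SE 1.06), and SLC25A23, which fell by 0.41 (SE 0.14). AP1M2 has CDKN2D (-0.87, SE 0.16) and SLC44A2 (-1.11, SE 0.05) beside it. SCRIB, itself little changed, lies 275 bases from IQANK1, which fell by 2.62 (SE 0.15), and 964 bases from PUF60 (-0.12, SE 0.06, not past). MAL2 lies between TNFRSF11B and CCN3, which rose by 2.75 (SE 0.88) and 3.62 (SE 0.40) at distances of 212833 and 170632 bases.

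Among transcripts of RNA handling, read for the same libraries, MALAT1 (0.59) and NEAT1 (0.32), both retained in the nucleus, rose, and FOS (-2.41) and JUN (-0.55), immediate early genes, fell. Of 7 tested in that list 2 rose, 4 fell and 1 did not pass, and without control replicate 2 the falls were 2.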
